A study of Mus musculus with 12 samples.

Results

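The acetylation of histone H4 (H4ac) was followed along the whole of mouse chromosome 8, to see whether a difference between cells carrying 2 forms of the transcription factor MLX runs through the chromosome or is confined to stretches of it. All peaks on chromosome 8 in 6 deposited peak lists were taken, and peaks that overlapped or touched were merged. This gave 1770 of the 31891 H4ac regions found on the 20 chromosomes. The cells were C2C12, an established line of mouse myoblasts, which are precursors of muscle fibres. They had been transduced with lentiviral constructs of either MLX-DN or MLX-WT, and both groups therefore carry an introduced MLX sequence. The labels do not spell DN out, and one of their fields calls those samples MLX down. Empty vector and non-targeting shRNA are mentioned as controls in the growth protocol and were not analysed here. Peak names also bear a tag which says that glucose was present. Each group has 3 H4ac libraries, made with a rabbit antibody to acetylated H4, and input chromatin is labelled as the control. The labels do not say whether replicates were separate cultures, and p-values therefore reflect no more than the spread among these libraries, which may be technical.

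Acetylated lysines on the H4 tail loosen the packing of nucleosomes and recruit proteins with bromodomains, and the mark is found at active promoters and enhancers. In sequencing data it appears as peaks over the start sites of transcribed genes and over distal elements. MLX is the obligate partner of MondoA and ChREBP, the glucose-responsive factors that bind carbohydrate response elements. Mouse chromosome 8 carries several genes of muscle and of insulin signalling, among them Acta1 (skeletal muscle actin), Cdh15 (M-cadherin), Nfix (a factor of fetal myogenesis), Insr (the insulin receptor) and Irs2 (its adaptor). The peak lists use the mm9 build, for which no annotation was used here, so peaks are named by position and not assigned to these genes.

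Values of 3 kinds were read from each peak. The fold is the authors' ratio of the ChIP pileup to the background at the summit. From the fold and the p-value of the same peak the whole number of ChIP reads and the control background were recovered, both in reads per 250 bp window. The control background is the local level the peak caller expected without enrichment, and the lists give it at their peaks alone. Which library served as the control of each list is not stated in the labels. ChIP depth recovered in this way lay between 3.30 and 3.90 reads per 250 bp window, with the 2 groups interleaved. Because control background scales with depth and with the scaling used by the caller, it is given as a ratio to the mean over all autosomal regions listed by all 6 libraries, so that 1 stands for the level of an average shared region of the same library.

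Over the chromosome as a whole, H4ac peaks were about as much more numerous in MLX-DN as elsewhere in the genome. MLX-DN replicates 1, 2 and 3 listed 845, 1383 and 927 peaks on chromosome 8, and MLX-WT replicates 1, 2 and 3 listed 296, 770 and 507. Every MLX-DN library thus lay above every MLX-WT library, with a mean of 1052 ± 290 against 524 ± 237 peaks (SD, n = 3 each). The ratio of geometric means was 2.11, and the exact permutation test over 20 assignments gave p = 0.10, the smallest value that 3 libraries against 3 can give. The share of all peaks that fell on chromosome 8 was 5.54% ± 0.0472 for MLX-DN and 5.51% ± 0.130 for MLX-WT (SD, n = 3 each; exact permutation test, two-sided, p = 0.80). The covered length was 564 ± 186 kb for MLX-DN and 232 ± 124 kb for MLX-WT, a ratio of 2.60 (SD, n = 3 each; exact permutation test, two-sided, p = 0.10).

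Chromosome 8 peaks were also wider in MLX-DN. The median width was 412, 442 and 435 bp in the MLX-DN libraries and 353.5, 397.5 and 369 bp in the MLX-WT libraries, with no overlap between the groups (exact permutation test, two-sided, p = 0.10). On the other chromosomes the medians averaged 412 ± 15.5 and 381 ± 18.9 bp (SD, n = 3 each), and there the groups overlapped. Peaks longer than 1 kb made up 7.99% ± 1.74 of chromosome 8 peaks for MLX-DN and 2.57% ± 2.08 for MLX-WT (SD, n = 3 each; exact permutation test, two-sided, p = 0.10). Such peaks were also more frequent in MLX-DN on the other chromosomes, at 5.75% ± 1.57 against 2.88% ± 1.27 (SD, n = 3 each; exact permutation test, two-sided, p = 0.10). The median fold of chromosome 8 peaks was 3.63 ± 0.136 for MLX-DN and 3.76 ± 0.158 for MLX-WT (SD, n = 3 each), and it was not tested because a fold is the peak's own value within a list.

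The equal share of peaks went with a different distribution over the strength of peaks. When each list was divided into 4 classes of equal size by −log10 q, chromosome 8 held 7.05%, 6.26% and 6.72% of the strongest class in the MLX-DN libraries, against 5.20%, 5.48% and 4.88% in the MLX-WT libraries. The second class went the other way, with 5.28% ± 0.408 for MLX-DN and 6.31% ± 0.420 for MLX-WT (SD, n = 3 each). Both differences separated the groups (exact permutation test, two-sided, p = 0.10 each), whereas the groups overlapped in the third class and in the weakest class. Among the 5385 strongest peaks of every list, the length of the shortest list, chromosome 8 held 6.58% ± 0.0387 for MLX-DN and 5.78% ± 0.279 for MLX-WT (SD, n = 3 each; exact permutation test, two-sided, p = 0.10).

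The 1770 regions reached from position 3237052 to position 131210314 (mm9), with a median width of 459.5 bp. Of these, 766 were listed by 1 library and 174 by all 6, which is 9.83% of the regions against 9.74% over all chromosomes. Regions listed by more libraries were wider, with a median of 308 bp for those of 1 library and 982 bp for those of all 6. The longest stretch without any region ran for 6896 kb, from 98412289 to 105307918, and no library listed a peak there.

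Peaks were then counted in 27 consecutive bins of 5 Mb, numbered from the start of the chromosome, so that bin 18 covers 85 to 90 Mb. The difference between the groups was not spread evenly. Bin 18 was the richest bin in the MLX-DN libraries, with 138, 199 and 142 peaks, against 27, 93 and 63 in the MLX-WT libraries. In bin 20 the counts were 64, 113 and 69 for MLX-DN and 16, 32 and 19 for MLX-WT, so the lowest MLX-DN library had more peaks there than the highest MLX-WT library. Bin 17 held 39, 58 and 44 peaks for MLX-DN and 9, 22 and 14 for MLX-WT. Bin 19 held 48, 86 and 50 for MLX-DN and 13, 31 and 23 for MLX-WT. The counts also did not overlap, with MLX-DN higher, in bins 1, 3, 4, 6, 7, 9, 10, 11, 13 and 16. These counts are not corrected for the length of the lists, which held 15201 to 24811 peaks for MLX-DN and 5385 to 13652 for MLX-WT. Lack of overlap in a bin is therefore not read as particular to that bin. The share of such bins over the genome was not counted. Beyond bin 21, which no library filled, the groups overlapped in every bin. In bin 23, for example, MLX-DN had 37, 62 and 46 peaks and MLX-WT 20, 57 and 34. Compared by replicate number, each MLX-DN library still had more peaks than the MLX-WT library in bins 22, 23, 25 and 26.

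**Figure D1:**
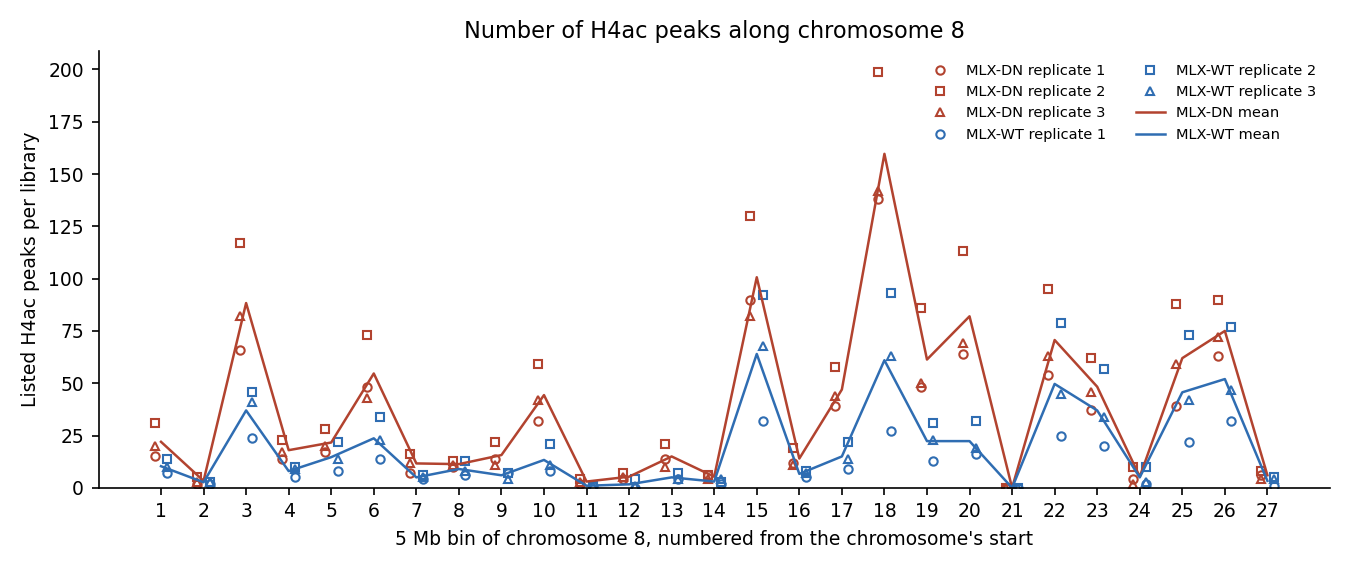
Number of listed H4ac peaks (vertical axis) in each 5 Mb bin of chromosome 8 (horizontal axis), for the 3 MLX-DN libraries (red) and the 3 MLX-WT libraries (blue), with lines at the group means. In bins 17 to 20, and in several earlier bins, every MLX-DN library lies above every MLX-WT library. Bin 21 is empty, and the groups overlap from bin 22 on.

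To take out the length of the lists, the share of a library's peaks in each bin was compared with limma, on log2 of the count plus 1 peak relative to the number of peaks in the list. Adjustment by the Benjamini-Hochberg method was over all bins of the genome with at least 3 peaks per library on average. Of 25 chromosome 8 bins tested, 5 held a larger share of peaks in MLX-DN at an adjusted p under 0.05, 7 a smaller share, and 13 were not called. Over all 469 bins tested in the genome, 11.9% were called higher and 14.3% lower in MLX-DN. The 5 higher bins were bins 10, 17, 18, 19 and 20, and the 7 lower bins were bins 5, 8, 15, 22, 23, 25 and 26.

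The largest gain in share was in bin 20, at 0.78 on the log2 scale (95% interval 0.48 to 1.07, limma adjusted p = 0.0019). Bin 10 followed with 0.65 (0.33 to 0.98, limma adjusted p = 0.0062) and bin 17 with 0.58 (0.29 to 0.87, limma adjusted p = 0.0063). Bin 18 gained 0.45 and bin 19 gained 0.38. At the other end, bin 24 had the lowest value, −0.96, and bin 2 had −0.87, but both hold few peaks and neither was called (limma adjusted p = 0.063 and 0.074). Bin 8 had −0.71 (−1.18 to −0.25, limma adjusted p = 0.025). The 4 called bins near the chromosome's end, 22, 23, 25 and 26, lay between −0.60 and −0.46. With lists of equal length, the value of bin 18 rose from 0.45 to 1.36, while bins 5, 8, 10, 15 and 26 were no longer called. With 1 library left out, bins 5 and 19 kept their calls only without MLX-WT replicate 1. Bin 8 lost its call without any 1 of the MLX-DN replicates, and bin 15 without MLX-DN replicate 2, MLX-DN replicate 3, MLX-WT replicate 2 or MLX-WT replicate 3. The other called bins kept theirs when 1 library was left out. At a −log10 q of at least 5, bin 17 fell to 0.39 and bin 19 to 0.31 and neither was called (limma adjusted p = 0.12 and 0.16), nor was bin 5.

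The control background was compared in the same bins at the regions listed by all 6 libraries, where every library contributes a value for the same region. It was tested in the 19 chromosome 8 bins with at least 3 such regions. MLX-DN was higher in 5 bins (9, 17, 18, 19 and 20), lower in 3 (22, 23 and 26), and 11 bins were not called. Over all 329 bins tested in the genome, 11.9% were called higher and 7.29% lower in MLX-DN.

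Bin 18 stood highest. Its control background was 2.97, 2.81 and 2.81 times the library's autosomal mean in the MLX-DN libraries and 1.23, 1.25 and 1.28 times in the MLX-WT libraries. The difference was 1.19 on the log2 scale (95% interval 1.09 to 1.30, limma adjusted p = 4.5e-08) over 21 shared regions. In bin 17 the MLX-DN values were 1.96, 1.87 and 2.02 and the MLX-WT values 1.02, 1.03 and 1.24, a log2 difference of 0.84 (0.65 to 1.02, limma adjusted p = 1.4e-04). In bin 20 they were 2.32, 2.32 and 2.28 against 1.22, 1.32 and 1.51, a log2 difference of 0.78 (0.61 to 0.94, limma adjusted p = 1.2e-04). Bin 19 had the smallest of the 4 differences, 0.59 (limma adjusted p = 5.6e-04), with 1.59 ± 0.058 against 1.05 ± 0.034 (SD, n = 3 each). In all 4 bins the 3 MLX-DN libraries were close to each other and far from the MLX-WT libraries.

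**Figure D2:**
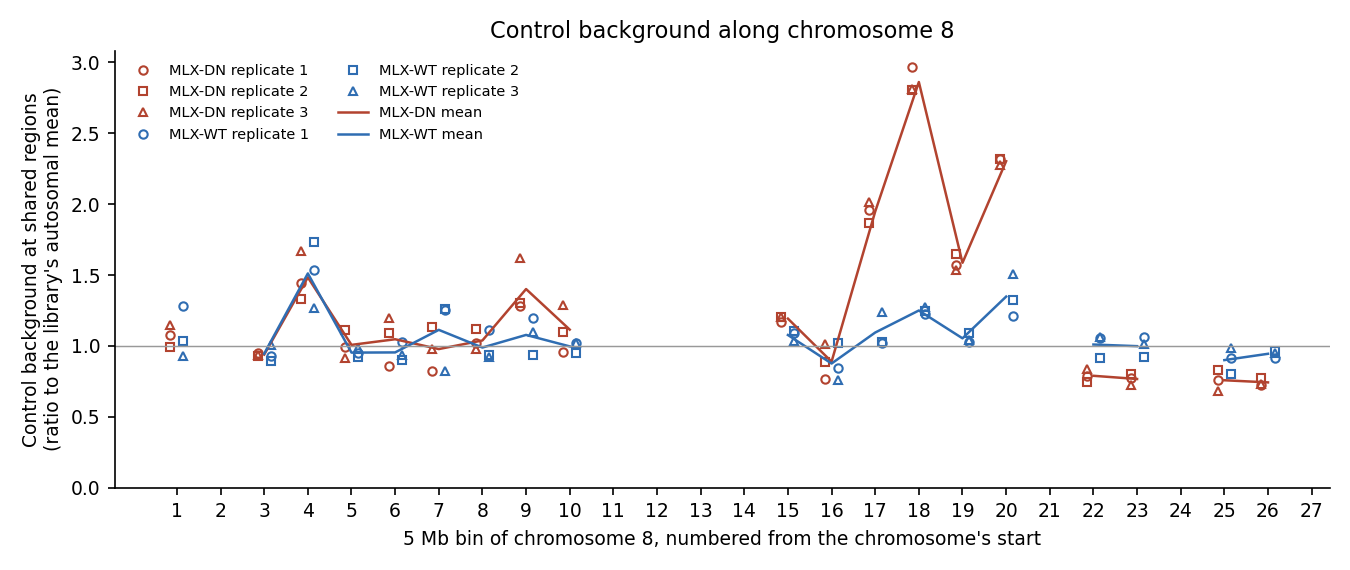
Control background at regions listed by all 6 libraries (vertical axis, ratio to the library's mean over the autosomes) in each 5 Mb bin of chromosome 8 with at least 3 such regions (horizontal axis), by library and as group means. The MLX-DN libraries lie at 1.54 to 2.97 in bins 17 to 20, where MLX-WT lies at 1.02 to 1.51, and below MLX-WT in bins 22, 23 and 26.

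The bins on the near side of this stretch showed little difference. Bins 1, 3 to 8, 10, 15 and 16 had log2 differences between −0.17 and 0.15, and none was called. Bin 9 was called at 0.38 (limma adjusted p = 0.044), on 3 shared regions, and it lost the call under 9 of 12 alternatives while 1 could not test it. Beyond the empty stretch the direction was opposite. Bin 23 had 0.77 ± 0.038 for MLX-DN and 0.999 ± 0.0723 for MLX-WT (SD, n = 3 each), a log2 difference of −0.38 (limma adjusted p = 0.021). Bins 22 and 26 had −0.35 each (limma adjusted p = 0.026 and 0.021), and bin 25 had −0.25 and was not called (limma adjusted p = 0.16). These 3 lower calls rest on the scaling to the autosomal mean: relative to the smallest background of each library, which moves the median of all bins in the genome by 0.27 on the log2 scale, bins 22, 23 and 26 stay below zero at −0.11 to −0.08 and are not called. Leaving out MLX-DN replicate 3 also ended all 3 calls (limma adjusted p = 0.067, 0.082 and 0.067 in bins 22, 23 and 26), and bin 22 also lost its call without MLX-DN replicate 2, MLX-WT replicate 1 or MLX-WT replicate 3, bin 23 without MLX-DN replicate 1 or MLX-WT replicate 1, and bin 26 without MLX-WT replicate 2. The bin 17 to 20 calls held in all 12 alternative limma fits on the same 5 Mb bins, among them each library left out in turn. A separate exact permutation test per bin, which cannot go below p = 0.10, passed adjustment in no bin (smallest adjusted p = 0.27).

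Set beside the rest of the genome, bins 18, 17, 20 and 19 had the 1st, 2nd, 3rd and 6th highest differences of control background among the 329 bins. The highest bin on any other chromosome was on chromosome 5, at 0.60. The differences of chromosome 8 bins had an SD of 0.431 on the log2 scale over 19 bins, and those of the other 18 autosomes had SDs between 0.0963 and 0.160. From its lowest to its highest bin chromosome 8 spanned 1.57, and the next widest span was 0.622, on chromosome 10. Chromosomes 5 and 15 also had 13 bins called each, but all in 1 direction: bins of chromosome 5 were higher in MLX-DN and bins of chromosome 15 lower. No test of the spread itself was made.

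**Figure D3:**
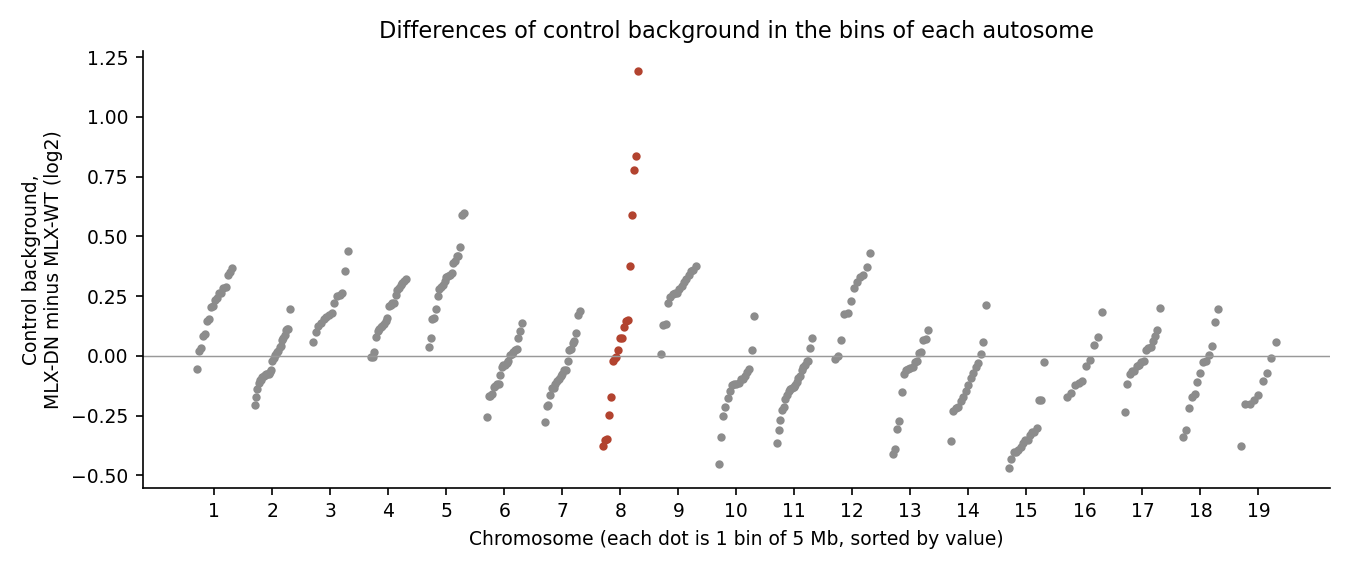
Difference of control background between MLX-DN and MLX-WT (vertical axis, log2) in every tested 5 Mb bin, sorted by value within each autosome (horizontal axis), with chromosome 8 in red. Chromosome 8 reaches from −0.38 to 1.19, and no bin of another chromosome exceeds 0.60.

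The ChIP reads at the same shared regions differed in the same direction as the control background in bins 17 to 20, 22, 23, 25 and 26, and the signs were alike in 13 of 19 bins. They were compared in the same way after the background had been seen. Both values are recovered from the same fold and p-value, at regions that all 6 libraries listed. A listed region with a higher background needs more reads, so the 2 measures are tied and their likeness is only described. For ChIP reads MLX-DN was higher in 5 bins (9 and 17 to 20), lower in 4 (22, 23, 25 and 26), and 10 bins were not called. Over the 329 bins of the genome, 25.2% were called higher and 20.1% lower, so the number of called bins on chromosome 8 was near that of the genome. In bin 18 the ChIP reads were 2.51 ± 0.0056 times the autosomal mean in MLX-DN and 1.205 ± 0.0072 times in MLX-WT (SD, n = 3 each), a log2 difference of 1.06 (limma adjusted p = 2.7e-11). The values in bins 17, 19 and 20 were 0.77, 0.72 and 0.65. Since reads and background rose by like factors, the fold at the shared regions hardly differed: over bins 17 to 20 the ratio of MLX-DN to MLX-WT was 1.92 for the control background, 1.83 for the ChIP reads and 0.985 for the fold.

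**Figure D4:**
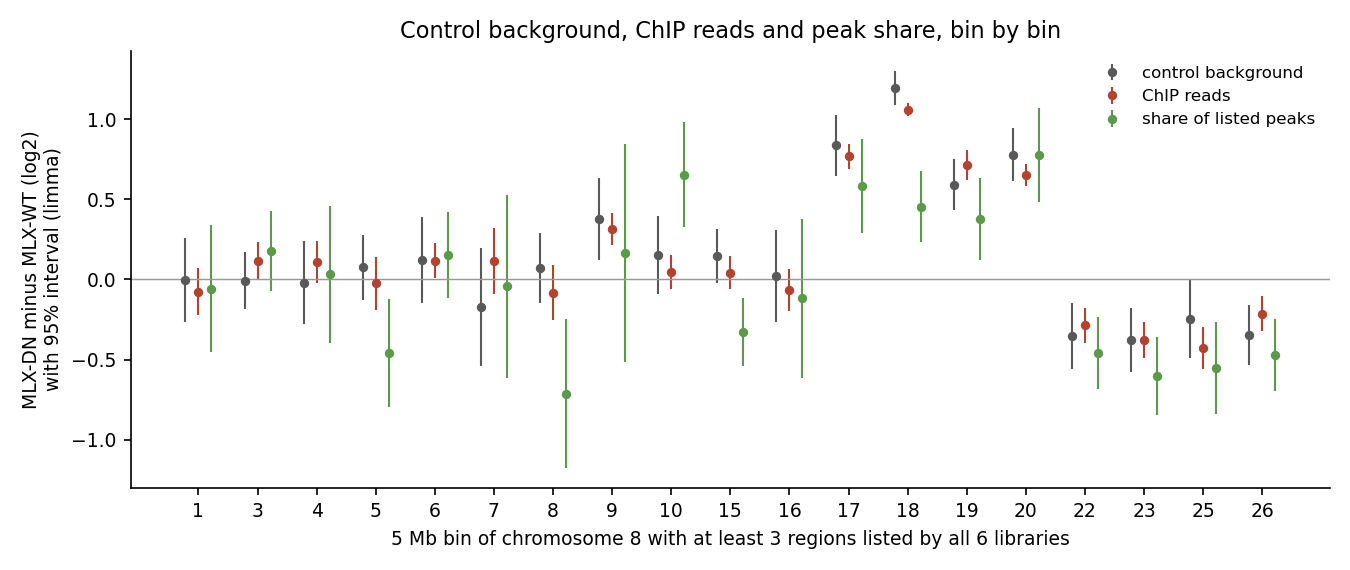
MLX-DN minus MLX-WT (vertical axis, log2, with the 95% interval of limma) of control background (grey), ChIP reads (red) and share of listed peaks (green) in the 19 bins with at least 3 regions listed by all 6 libraries (horizontal axis). All 3 measures lie above zero in bins 17 to 20 and below zero in bins 22, 23, 25 and 26.

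Peak share and control background differed in the same direction in bins 17 to 20, 22, 23, 25 and 26. Elsewhere their signs were alike in bins 1, 6, 7, 9 and 10 and unlike in bins 3, 4, 5, 8, 15 and 16. The counts below are of chromosome 8 alone and are not set beside the genome. Of the 8 bins called for control background, 7 were also called for peak share in the same direction, and the signs were alike in 13 of the 19 bins with both values. Of the 12 bins called for peak share, 7 were called for control background. The exceptions are bins 5, 8, 10 and 15 and, beyond the empty stretch, bin 25, which lost share with an uncalled background difference of −0.25. Bin 10 gained share with a background difference of 0.15 that was not called, bin 9 had a higher background with an uncalled share difference of 0.16, and bins 5, 8 and 15 lost share with uncalled background differences between 0.07 and 0.15. How far the control background accounts for the number of peaks listed in a bin was not tested.

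A division of the chromosome into fixed parts of 9 bins gave a like picture in coarser form. The parts were not cut at the values, but they were chosen with earlier results of these data known. They also use the same regions, so they are no separate support. Bins 17 and 18 held 7 and 21 of the 61 shared regions of bins 10 to 18. The control background of bins 10 to 18, minus the mean of bins 1 to 9 and bins 19 to 27, was 0.72, 0.67 and 0.70 on the log2 scale in the MLX-DN libraries and 0.07, 0.16 and 0.08 in the MLX-WT libraries. The difference was 0.59, and the groups did not overlap (exact permutation test, two-sided, p = 0.10). For peak number the same contrast gave 0.32 (exact permutation test, two-sided, p = 0.10). The last 9 bins against the first 9 differed between the groups by −0.11 for control background (exact permutation test, two-sided, p = 0.20) and by −0.23 for peak number (p = 0.10 in the same exact test). Both values depend on single libraries: the background value was −0.01 without MLX-WT replicate 3 and −0.22 without MLX-DN replicate 1, and the peak value −0.10 without MLX-WT replicate 2. The last 9 bins mix bins 19 and 20 with the lower bins beyond them.

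For a closer description the chromosome was divided at the bins themselves, into bins 1 to 16, bins 17 to 20 and bins 21 to 27. These stretches were chosen after their values were seen, so the values below have no test. Bins 17 to 20 held 540 of the 1770 regions, which is 30.5%, and 47 of the 174 regions listed by all 6 libraries. Peaks numbered 289, 456 and 305 there in the MLX-DN libraries and 65, 178 and 119 in the MLX-WT libraries, a ratio of 3.08. These were 34.2%, 33.0% and 32.9% of the chromosome 8 peaks for MLX-DN and 21.96%, 23.1% and 23.5% for MLX-WT. Covered length differed by a ratio of 4.15. Bins 1 to 16 had a peak ratio of 2.12 and a background ratio of 1.07, and bins 21 to 27 a peak ratio of 1.49 and a background ratio of 0.792.

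Without bins 17 to 20, the rest of chromosome 8 no longer stood above the other autosomes. Those bins were chosen after their high values were seen, so leaving them out lowers the chromosome's difference by construction. The values below only describe what remains. Over all 174 shared regions the control background of chromosome 8 was 1.21 ± 0.0209 for MLX-DN and 1.05 ± 0.0139 for MLX-WT, a ratio of 1.15 (SD, n = 3 each; exact permutation test, two-sided, p = 0.10). Over the 127 shared regions outside bins 17 to 20 it was 0.958 ± 0.0275 and 1.00 ± 0.0268, a ratio of 0.955 (SD, n = 3 each), with a difference of opposite sign. ChIP reads behaved alike, with a ratio of 1.14 over the chromosome and 0.954 without the 4 bins. The number of peaks remained higher in MLX-DN on average without them, at 702 ± 198 against 404 ± 181 (SD, n = 3 each), but the groups then overlapped. By replicate number each MLX-DN library still listed more, at 556, 927 and 622 peaks against 231, 592 and 388. The share of a library's peaks on the remaining chromosome was 3.69% ± 0.0404 for MLX-DN and 4.25% ± 0.115 for MLX-WT (SD, n = 3 each).

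The bin values are means over single shared regions, and bins 17 to 20 were chosen after those values were seen. Counts of regions there were thus bound to be high, and they only describe how evenly the difference was spread. At 40 of the 47 shared regions the control background of every MLX-DN library lay above that of every MLX-WT library, and at 46 of 47 the group mean was higher in MLX-DN. Over the 3107 shared regions of the genome, 8.11% had every MLX-DN library above every MLX-WT library, and 8.53% had the reverse. In bins 21 to 27 none of 49 shared regions had all MLX-DN libraries above and 8 had all MLX-WT libraries above. In bins 1 to 16 the counts were 8 and 2 of 78.

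Seen in steps of 1 Mb, at regions listed by at least 2 of 3 libraries in each group, the change at the near edge fell between the steps that start at 77 and at 81 Mb. At the far edge it cannot be placed within the stretch without regions. Steps were used where each library had a value. From 81 to 99 Mb there were 14 such steps with 86 regions, and in all 14 every MLX-DN library lay above every MLX-WT library, with ratios from 1.43 to 2.49. These limits were set after the values were seen, so the count is a description and was bound to be high. Over the 1275 steps of the genome, 12.2% had every MLX-DN library above and 11.5% every MLX-WT library above. Before 81 Mb, 2 of 36 steps had all MLX-DN libraries above, 1 had all MLX-WT libraries above and 33 overlapped. The step from 77 to 78 Mb still had a ratio of 1.05, and the step from 81 to 82 Mb had 2.03, with 2.02 ± 0.0813 for MLX-DN and 1.00 ± 0.147 for MLX-WT (SD, n = 3 each).

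Within the stretch the level was not uniform. The 5 steps from 85 to 90 Mb had ratios of 2.13 to 2.49, and the 6 steps with values from 90 to 99 Mb had 1.43 to 1.98. At 90 Mb the ratio went from 2.13 in the step before, on 2 regions, to 1.43 in the step after, on 8. The steps that start at 81, 82 and 83 Mb had 2.03, 1.93 and 2.19, and the step at 96 Mb had 1.98. These steps therefore cannot place a sharp change at 90 Mb, which is also the edge of a bin. The last step, 98 to 99 Mb, had a ratio of 1.52 and was followed by the stretch without regions. The first step with values on its far side, 106 to 107 Mb, had 0.702. From there to the chromosome's end 13 of 20 steps had all MLX-WT libraries above, none had all MLX-DN libraries above, and the ratios ran from 0.616 to 1.04.

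The peaks listed in bins 17 to 20 had other values of fold, reads and background in the 2 groups. These bins were chosen after a higher control background had been seen there in MLX-DN. With a Poisson p-value, a higher background lets lower folds pass and calls for more reads. The differences are thus partly bound to that choice and are only described. The median fold in bins 17 to 20 was 2.98, 3.198 and 2.97 in the MLX-DN libraries and 3.72, 3.77 and 3.51 in the MLX-WT libraries. In bins 1 to 16 the medians were 3.85 ± 0.130 and 3.83 ± 0.167, and in bins 21 to 27 they were 3.97 ± 0.141 and 3.79 ± 0.178 in MLX-DN and MLX-WT (SD, n = 3 each). The lower fold of the MLX-DN peaks was therefore seen in bins 17 to 20 and in neither of the other stretches. Peaks with a fold under 2.5 made up 18.9% ± 4.25 of the MLX-DN peaks in bins 17 to 20 and 5.23% ± 2.25 of the MLX-WT peaks (SD, n = 3 each). The lowest fold listed there was 1.72 to 1.77 in the MLX-DN libraries and 2.06 to 2.20 in the MLX-WT libraries.

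The peaks listed there also had more reads in MLX-DN. The median number of ChIP reads at the summit in bins 17 to 20 was 60, 51 and 65 for MLX-DN and 40, 35 and 33 for MLX-WT, and the median control background was 19, 13.8 and 19 against 9.50, 8 and 8.86 reads. In bins 1 to 16 the medians of ChIP reads were 33.7 ± 1.53 and 33 ± 3 (SD, n = 3 each). The p-value of the caller comes from a Poisson distribution, in which the same fold gives a smaller p at a higher count. By −log10 q, 39.8% ± 3.07 of the MLX-DN peaks of bins 17 to 20 ranked in the strongest of the 4 classes of their list, against 25.7% ± 8.01 of the MLX-WT peaks (SD, n = 3 each). Their median width was 465 ± 22.9 bp for MLX-DN and 371 ± 17.2 bp for MLX-WT (SD, n = 3 each). So the MLX-DN peaks of this stretch were more numerous, wider and lower in fold, with a larger part in the strongest class. Their median percentile by −log10 q overlapped between the groups, at 61.1, 58.4 and 67.0 for MLX-DN against 62.7, 51.6 and 49.2 for MLX-WT.

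**Figure D5:**
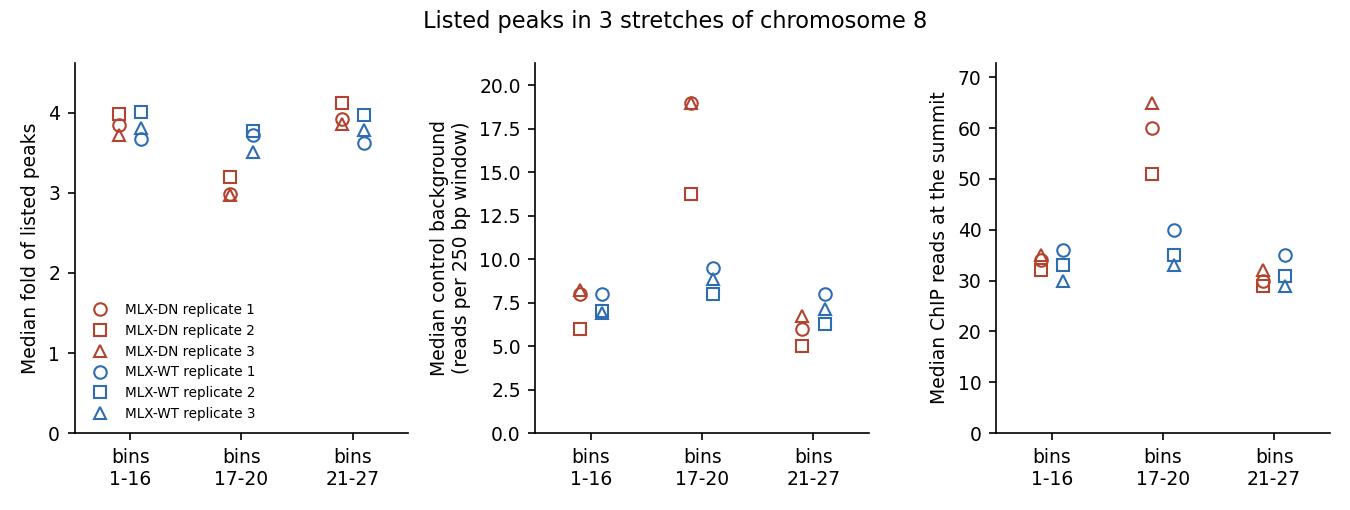
Median fold, median control background and median ChIP reads of the listed peaks (vertical axes) in 3 stretches of chromosome 8 (horizontal axes), 1 symbol per library. In bins 17 to 20 the MLX-DN libraries (red) lie below MLX-WT (blue) in fold and above it in background and reads, and in the other stretches the groups lie close together.

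Regions listed by every MLX-DN library and by no MLX-WT library numbered 130 on chromosome 8, out of 529 listed by all MLX-DN libraries. That is 24.6%, against 21.3% over all chromosomes. Its exact 95% binomial interval is 20.96% to 28.5%, which covers counting error only. The interval takes regions as independent, though they come from the same 6 libraries. The stretches were chosen after their values were seen, so their shares are only described. By stretch the share was 31.9% in bins 17 to 20 (61 of 191), 23.3% in bins 1 to 16 (50 of 215) and 15.4% in bins 21 to 27 (19 of 123). Bins 17 to 20 thus held 46.9% of these 130 regions, with 30.5% of all regions and 191 of the 529 listed by all MLX-DN libraries. The reverse pattern was rare, with 3 of 202 regions of all MLX-WT libraries, and 1.49% over all chromosomes, and their number on chromosome 8 became 8, 17 and 7 without MLX-DN replicate 2, MLX-WT replicate 1 and MLX-WT replicate 3. The count of 130 depends on the lists compared: it was 33 at equal list length, and 232, 199 and 213 without MLX-DN replicate 1, MLX-DN replicate 3 and MLX-WT replicate 2. The differences between stretches were not tested.

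Several of these 130 regions lay beside a peak of the other group. For 30 of them an MLX-WT peak was found within 1 kb, and the median distance to the nearest MLX-WT peak was 14.2 kb. The region at chr8:93947430-93948353 in bin 19 ranked highest, with folds of 5.95, 6.09 and 5.78 in the MLX-DN libraries, and its nearest MLX-WT peak was 776 bp away. The next was chr8:14538852-14539824 in bin 3, with folds of 6.62, 7.43 and 6.15 and an MLX-WT peak at 792 bp. The third, chr8:96411947-96413754 in bin 20, was 1808 bp wide, had folds of 3.52, 6.38 and 5.67 and lay 335 bp from an MLX-WT peak. The fourth, chr8:11691438-11692957 in bin 3, lay 436 bp from one and had folds of 6.89, 6.08 and 5.31. Only the fifth, chr8:15730479-15731341 in bin 4, stood far from any, with the nearest MLX-WT peak 657748 bp away and folds of 6.11, 6.53 and 5.23.

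The 3 regions of the reverse pattern were weak. The region at chr8:71438923-71439436 in bin 15 had folds of 3.81, 5.71 and 3.85 on 20, 27 and 18 ChIP reads in the MLX-WT libraries. The other two, chr8:113313134-113314451 in bin 23 and chr8:124189431-124189864 in bin 25, had folds of 2.90 to 4.57. In its weakest list each ranked no higher than the 17.3 percentile of −log10 q, and each had an MLX-DN peak within 2343 to 6617 bp.

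The strongest region shared by all 6 libraries on chromosome 8 was chr8:87323073-87324084 in bin 18, which never fell below the 98.3 percentile of a list. Its ChIP reads were 159, 150 and 152 in the MLX-DN libraries and 76, 79 and 67 in the MLX-WT libraries, so the counts did not overlap. Its control background was 21, 17 and 21.8 reads for MLX-DN and 8.50, 8 and 11.8 for MLX-WT. Its folds did overlap, at 6.82, 7.12 and 6.20 against 7.32, 8.30 and 5.31.

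The region at chr8:81552380-81555155 in bin 17, near the proximal edge of the stretch, showed the same relation. Its ChIP reads were 137, 164 and 159 for MLX-DN and 61, 60 and 58 for MLX-WT. Its control background was 26, 18.5 and 30 reads against 11, 10.0 and 12.8. The folds were 4.80, 7.18 and 4.76 against 4.67, 5.18 and 4.28, again with overlap. Reads and background were thus both higher in MLX-DN at a region whose fold did not separate the groups.

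Strong shared regions outside the stretch varied in pattern. At chr8:111227697-111229048 in bin 23, on the far side of the empty stretch, ChIP reads were 37, 50 and 49 for MLX-DN and 60, 70 and 45 for MLX-WT. Its control background was 3.13, 5.25 and 6.0 reads for MLX-DN and 8.25, 6.0 and 7.88 for MLX-WT. At chr8:124474575-124475363 in bin 25 the reads were 73, 80 and 63 against 80, 85 and 59, and the groups overlapped in reads and in background. At chr8:72240338-72240846 in bin 15 the MLX-DN reads were 101, 107 and 112 and the MLX-WT reads 77, 89 and 69, while the background overlapped. In the first 9 bins the strongest shared region was chr8:8689746-8690902 in bin 2, with 73, 79 and 79 reads for MLX-DN and 61, 75 and 60 for MLX-WT.

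The widest regions shared by all 6 libraries were merged from several peaks. The widest, chr8:72459050-72463526 in bin 15, measured 4477 bp and had 64, 70 and 62 ChIP reads for MLX-DN and 45, 39 and 30 for MLX-WT. Next came chr8:87253121-87256415 in bin 18, with 3295 bp and 96, 120 and 101 reads against 33, 36 and 36. Its control background was 23, 20.8 and 20.1 reads for MLX-DN and 10.5, 9 and 9.84 for MLX-WT. The third, chr8:14649916-14653018 in bin 3, measured 3103 bp and had 54, 63 and 48 reads against 33, 36 and 30. In all 3 every MLX-DN library had more reads than every MLX-WT library. The control background overlapped at the bin 15 region and separated the groups at the other two, with 7.0, 9.0 and 9.0 reads against 4.58, 4.75 and 5.37 in bin 3. The folds of the bin 3 region overlapped, at 6.46, 5.44 and 4.52 against 5.52, 6.01 and 4.87. The relation described for bins 17 and 18 was therefore also seen at this region outside the stretch.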

How the data were processed

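Peak lists of 6 H4ac ChIP-seq libraries were used, 3 per group by the sample titles, out of 12 libraries in the labels; the files of the input libraries were not used, and which library was the control of each list is not stated. Per the submitters' processing notes, the tools were MACS2 2.0.9, BWA 0.5.9-r26, CASAVA, SAMtools and Picard 1.65 on mm9, given with no roles or settings. The authors deposited, for each peak, its fold as a ratio to background, p and q each as −log10, and a score derived from q. Each list holds 1 library, so peaks were called per sample. The smallest −log10 q was 1.31 to 1.35, close to a q of 0.05, and the shortest peak 250 bp.

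With the fold as (ChIP + 1)/(background + 1) and p as a Poisson probability of the same pair, 1 scale factor per library made the ChIP reads whole at 100% of peaks (tolerance 0.001 in −log10 p), and wrong factors at 0.4% to 0.667% in the median. Absolute read totals are unknown. The background is a local maximum over windows that cannot fall below the genome-wide level. A region was listed by a library when a peak overlapped it by at least 1 bp. Coordinates are mm9, counted from 1. In a region with several peaks of a library, 1 value per library was used, that of the peak with the highest −log10 p.

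Bins were tested with limma 3.58.1 (R 4.3.3, empirical Bayes with trend), adjusted by Benjamini-Hochberg over all bins of the genome, and single values with an exact permutation test on log2 values, two-sided (scipy 1.17.1). The recovery and the bin test were tested on simulated data. Same-numbered libraries did not deviate together in their bin values, so no block was used in the main tests. List lengths, however, had the same order by replicate number in both groups. Alternatives were other thresholds, list lengths, bin sizes, region filters, scalings, each library left out and the replicate block. The chromosome, lists and tests were chosen with earlier results of these data known. Named regions were those ranking highest by the lowest percentile they reach in any list by −log10 q (5 of all libraries, 5 per group, 1 for each 9 bins) and the 3 widest. Named bins were the 3 highest and 3 lowest for each measure. Other bins were named after their values were seen. Gene names were not used, since the gene table at hand is of another build.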

Additional observations from a re-analysis of the deposited data

How the results depend on the processing

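Removing bins 17 to 20, an alternative added after the data were seen, reversed the chromosome's log2 difference for control background (−0.067), ChIP reads (−0.068) and share of peaks (−0.20). A fall was fixed by the choice of these bins. The share of peaks also lay on both sides of zero when 1 library was left out (−0.0074 to 0.027), the value below zero being without MLX-WT replicate 3.

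Bins called for control background numbered 5 with 10 Mb bins, 4 with at least 1 shared region per bin, 4 relative to the smallest background, and 4 to 6 with 1 library left out (4 without MLX-DN replicate 3). Bins called for peak share numbered 7 with 10 Mb bins and 7 at equal list length. Regions listed by every MLX-DN library and no other numbered 33 at equal length and 138 to 232 with 1 library left out. The opposite regions numbered 11 and 3 to 17, with 8, 17 and 7 without MLX-DN replicate 2, MLX-WT replicate 1 and MLX-WT replicate 3. Some settings leave fewer bins or libraries, and the cause of these changes was not tested.

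With the replicate block, 4 bins were called for control background, bins 17 to 20, and 13 for peak share. Same-numbered libraries did not deviate together over bins (r from −0.056 to 0.0075 for background and 0.050 to 0.21 for share). In exact permutation tests per bin, no bin passed adjustment over all bins (smallest adjusted p = 0.27 for background and 0.23 for share). The numbers of called bins under the alternatives are of chromosome 8 alone, without the share over the genome beside them. Of the other alternatives to the results for the whole chromosome or its 9-bin parts, 86 values kept their direction and 34 counts stayed within 1.5 times. With 3 libraries a group the exact test cannot pass 0.05, so its p says nothing of stability. Background is unmeasured where no peak was listed, and 8 bins had too few shared regions to test.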
